A study of Rattus norvegicus and Sus scrofa and Bos taurus with 188 samples.

Results

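The first lineage decisions of the mammalian embryo set apart an outer epithelium, the trophectoderm, from inner cells that later divide into epiblast and hypoblast. The genes described here are 10 regulators and structural genes of these lineages: the transcription factor genes TFAP2A, TFAP2C, GATA2, GATA3, CDX2 and EOMES of the trophectoderm, GATA4 and GATA6 of the hypoblast, and the keratin genes KRT8 and KRT18. They were chosen by name, with earlier results of these data known, and all 10 had a row among the 15877 gene names of the table. Their values were measured in pig morulae marked PG, a mark that sister samples of the series use for embryos parthenogenetically activated from an egg without sperm, which carry no paternal genome. Their tissue label is morula, and the labels used here give no breed, age or number of embryos.

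The series profiles DNA methylation, histone marks and RNA in eggs and early embryos of several mammals, with 188 samples in 90 groups in the labels. A single processed table was used, of 1 group, in which the authors merged 4 Smart-seq2 libraries of morula RNA into 1 column. Values are in FPKM, which correct fragment numbers for transcript length and library size, so levels of different genes are compared per length. A merged column carries no replicate error, so no SD or test can be given, and neighbours in an order of levels cannot be said to differ.

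In the mouse, where these genes are best studied, the trophectoderm programme starts in outer cells in which YAP1 enters the nucleus and acts with TEAD4. TFAP2C, GATA3 and CDX2 act downstream or beside them, and EOMES follows in the trophoblast. The hypoblast, called primitive endoderm in the mouse, is specified by GATA6 under FGF signalling, with GATA4 later. KRT8 and KRT18 are the first keratins of the embryo and form filaments together, as a pair of a type II and a type I chain. The timing and order of these factors differ between mammals.

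The 10 genes did not share a level. TFAP2C, GATA6 and KRT18 were high, KRT8, GATA3 and GATA4 were low to moderate, and EOMES, GATA2, CDX2 and TFAP2A were below 1 FPKM. At 1 FPKM or more, the level used here to call a gene expressed, were 6 of the 10 genes, against 48.8% of all genes of the table, so their share of expressed genes was not far from the background. With the rows of a gene summed the count was again 6 (50.6% of all genes), and after rescaling to TPM it was 7 (61.3%). The rescaling multiplies all values by the same factor, so a threshold of 1 TPM acts as a lower threshold in FPKM. The count was 6 at a threshold of 0.5 FPKM (56.5%) and 4 at 5 FPKM (28.4%). They ranged between 193.6 FPKM for TFAP2C and 0.0881 FPKM for TFAP2A. Their median of 2.77 FPKM compares with 0.916 FPKM over all genes. Together the rows of the 10 genes held 0.0920% of the FPKM total, and TFAP2C alone made up 69.1% of their sum.

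**Figure D1:**
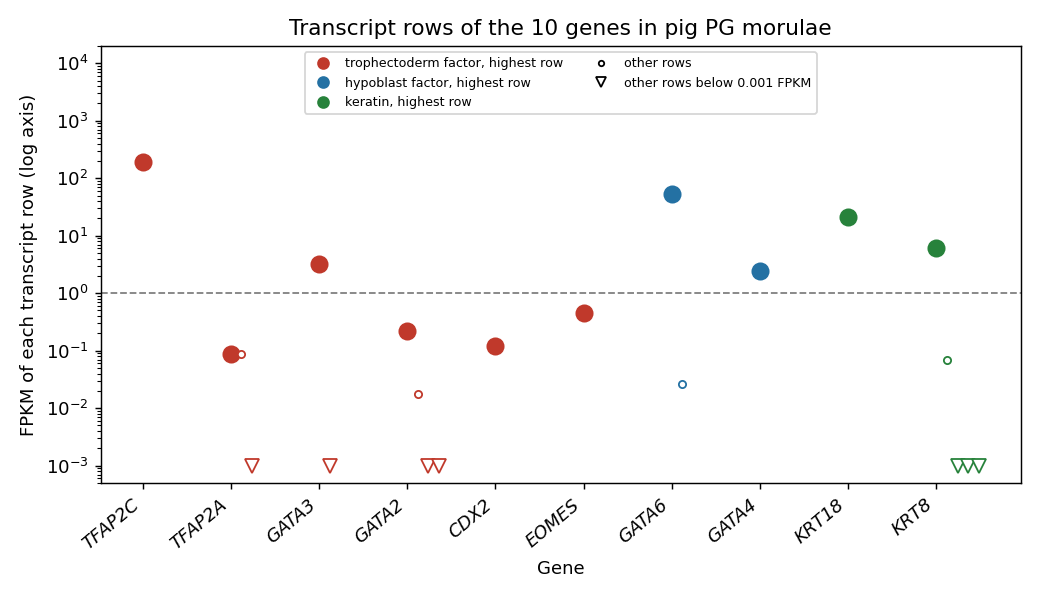
FPKM (log axis) of every transcript row of the 10 genes, with the highest row of each gene as a filled point, other rows as open points set to its right, and rows under 0.001 FPKM as triangles drawn at that level. The dashed line marks 1 FPKM. TFAP2C, GATA6 and KRT18 lie above 20 FPKM in 1 row each, and the 4 trophectoderm factors TFAP2A, GATA2, CDX2 and EOMES lie below the line.

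The table lists 21 transcript rows for the 10 genes, and 6 of these rows reached 1 FPKM, 1 for each expressed gene. TFAP2C, GATA4, CDX2, EOMES and KRT18 have 1 row each, so their value is that of a single annotated transcript. In 9 of the 10 genes the highest row held over 90% of the gene's sum, which for the 5 genes with 1 row is so by definition. GATA6 had 52.6 FPKM in one transcript (ENSSSCT00000004101.3) and 0.0261 FPKM in the other (ENSSSCT00000037382.1). GATA3 had 3.16 FPKM in one transcript (ENSSSCT00000038381.1) and 2.30e-08 FPKM in the other (ENSSSCT00000012175.3). KRT8 had 6.02 FPKM in one of its 5 rows (ENSSSCT00000038646.1) and 0.0675 FPKM in the next (ENSSSCT00000054375.1), while its other 3 rows were at 1.77e-05 FPKM or lower. Among the 5 genes with several rows, TFAP2A was the only one without a dominant row. It had nearly equal values of 0.0881 and 0.0880 FPKM in 2 rows that held 50.02% and 49.98% of its sum. The sum of its rows was 0.176 FPKM, which put it above CDX2, so the order of the lowest pair depends on how rows are combined. Values as small as 2.30e-08 FPKM do not come from counting whole reads, and where reads are divided among overlapping transcripts by estimation, 1 transcript can receive nearly all of them.

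TFAP2C, which encodes the AP-2 gamma protein, was the highest of the 10 genes at 193.6 FPKM. It ranked 214th of 15877 genes, above 98.7% of the others, and lay 28.1-fold above the median of the genes at 1 FPKM or more (6.89 FPKM). AP-2 proteins bind DNA as dimers, and in mouse embryos TFAP2C acts on CDX2 and on genes of polarity and tight junctions in outer cells. In human cells it is also known from naive pluripotency, so its name does not tie it to the trophectoderm alone. TFAP2C held 99.8% of the summed FPKM of the 5 AP-2 genes. Its closest relative in level, TFAP2E, had 0.157 FPKM, TFAP2A 0.0881 FPKM and TFAP2B 0.0538 FPKM, and TFAP2D was listed at 0. TFAP2A, a regulator of trophoblast, skin and neural crest, thus ranked 11524th of all genes where its paralogue ranked 214th. Of 4 measured AP-2 cofactor genes 3 (75%) reached 1 FPKM, against 48.8% of all genes. The coactivator genes CITED2 and CITED1 had 41.6 and 2.53 FPKM, KCTD15, whose protein inhibits AP-2 activity, had 1.22 FPKM, and CITED4 had 0.323 FPKM.

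GATA3, a zinc finger factor of trophectoderm and trophoblast in mouse, human and cattle, had 3.16 FPKM and ranked 5459th, above 65.6% of genes. Its level was 0.458 of the median expressed gene. TFAP2C exceeded it 61.3-fold. GATA2, which acts beside GATA3 in mouse and human trophoblast, had 0.224 FPKM in its highest row and 0.242 FPKM over 4 rows. GATA2 was thus below 1 FPKM and GATA3 above it, by highest rows and by sums.

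CDX2, the caudal-type homeobox factor that keeps mouse trophectoderm from expressing pluripotency genes, had 0.121 FPKM and ranked 11128th, above 29.9% of genes. On the log2(FPKM + 1) scale, which damps ratios against such low values, TFAP2C lay 7.44 and GATA3 1.89 above it. No gene of the caudal and ParaHox group reached 1 FPKM, a level that 48.8% of all genes reached. PDX1 had 0.247 FPKM and GSX2 0.243 FPKM, above CDX2, and CDX1, CDX4 and GSX1 were listed at 0. EOMES, a T-box factor of the mouse trophoblast and later of mesoderm and endoderm, had 0.455 FPKM in its only row and ranked 9143rd, above 42.4% of genes. It was the fourth of 17 T-box genes and held 1.44% of their summed FPKM. The 3 T-box genes above it were TBX3, a repressor with roles in pluripotent cells and endoderm, at 11.04 FPKM, MGA, which carries a T-box beside a MAX-binding domain, at 6.0004 FPKM, and TBX6, a mesoderm factor, at 1.57 FPKM. Of the others, 7 were listed at 0.

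GATA6, the factor that specifies primitive endoderm in the mouse and is also found outside the hypoblast in early human and cattle embryos, had 52.6 FPKM and ranked 936th, above 94.1% of genes. It lay 7.63-fold above the median expressed gene and was exceeded 3.68-fold by TFAP2C. GATA4, which follows GATA6 in the mouse primitive endoderm, had 2.39 FPKM and ranked 6048th, above 61.9% of genes. GATA6 exceeded GATA4 22.03-fold and GATA3 16.7-fold, and it held 89.9% of the summed FPKM of the 7 GATA-type genes. GATA3 held 5.39% and GATA4 4.08% of that sum. TRPS1, an atypical GATA-type repressor, had 0.102 FPKM, and the blood factor gene GATA1 and the endoderm and heart factor gene GATA5 were listed at 0. GATA3 and GATA4 differed only 1.32-fold, and with no replicate spread their order is not established. Among 7 genes of GATA partners 2 (28.6%) reached 1 FPKM, against 48.8% of all genes. They were the LIM-domain gene LMO4 at 6.63 FPKM and LDB1 at 1.49 FPKM. The FOG cofactor genes ZFPM2 and ZFPM1 had 0.435 and 0.0536 FPKM, with ZFPM1 picked after its level was known.

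**Figure D2:**
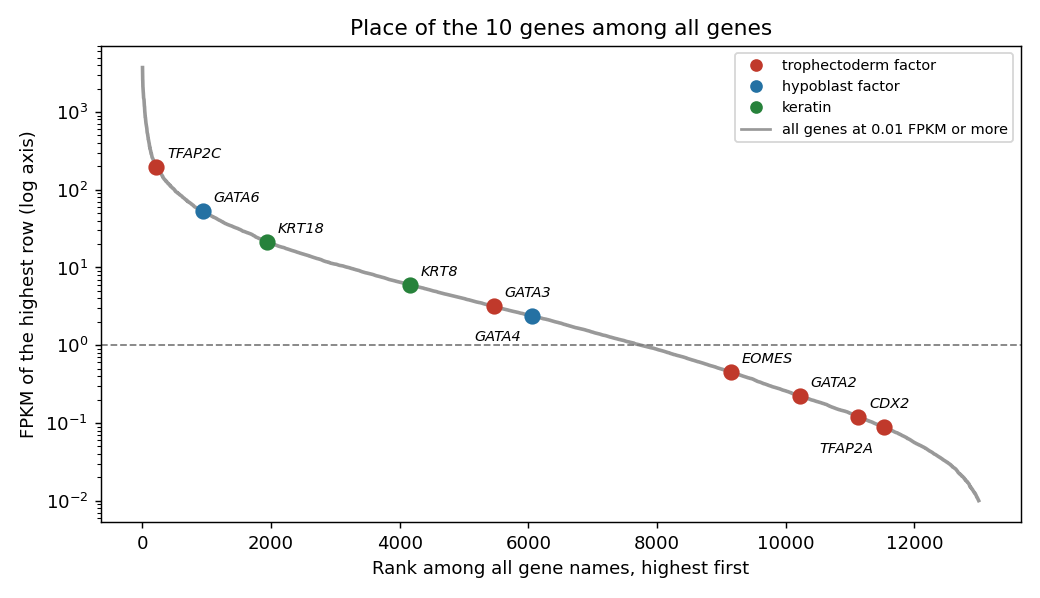
FPKM of the highest row (log axis) against rank for all genes at 0.01 FPKM or more (grey line), with the 10 genes as points coloured by role and 1 FPKM as a dashed line. Trophectoderm factors are the highest and the lowest of the 10 genes, with TFAP2C at rank 214 and TFAP2A at rank 11524.

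Among the 59 measured transcription factor genes of the lineage and family lists combined, 17 (28.8%) reached 1 FPKM, against 48.8% of all genes. At 5 FPKM, a level that 28.4% of all genes reached, the count was 9 of 59. By highest rows TFAP2C was first and GATA6 second in that set, just above TEAD4 (49.4 FPKM), and by summed rows GATA6 was below TEAD4, with 52.6 FPKM against 61.4 FPKM for TEAD4. By highest rows GATA3 was 12th, GATA4 14th, EOMES 21st, GATA2 29th, CDX2 37th and TFAP2A 41st. The 6 trophectoderm factors among the 10 genes thus lay between the first and the 41st place, with GATA6 below TFAP2C and above the other 5.

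KRT18, the type I chain of simple epithelia, had 21.5 FPKM and ranked 1936th, above 87.8% of genes. KRT8, its type II partner, had 6.02 FPKM and ranked 4157th, above 73.8% of genes. KRT18 exceeded KRT8 3.57-fold by highest rows and 3.53-fold by sums, although the chains pair one to one in filaments. In human and mouse genomes KRT8 and KRT18 have processed copies elsewhere, and whether reads of such copies enter these values was not tested. Both lay at the top of the 37 measured keratin genes, of which KRT18 held 44.2% and KRT8 12.5% of the summed FPKM.

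Of the other 35 keratin genes 6 (17.1%) reached 1 FPKM, against 48.8% of all genes, and 19 were listed at 0. In the table the keratins fall into 2 unbroken or nearly unbroken stretches, one with 19 type II genes and KRT18, the other with 17 type I genes. The KRT18 row directly follows the last KRT8 row, as the type I gene KRT18 is known to lie beside KRT8 in mammalian type II clusters. In the stretch that holds them, KRT8 and KRT18 were the only 2 of 20 genes at 1 FPKM or more, and the next highest, KRT5 of basal epidermis, picked after its level was known, had 0.0582 FPKM. In the other stretch 6 of 17 genes reached 1 FPKM. They were led by KRT32 at 5.79 FPKM and KRT25 at 3.88 FPKM, both known from hair and its root sheath, with KRT10 of the upper epidermis at 2.22 FPKM and KRT24 at 2.101 FPKM next. KRT32 thus had a level close to that of KRT8, the second keratin of the table. Of the remaining simple-epithelium keratins, KRT20 had 0.0992 FPKM and KRT7, a keratin of human trophoblast, had 0.0295 FPKM, while KRT19 was not analysed here.

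**Figure D3:**
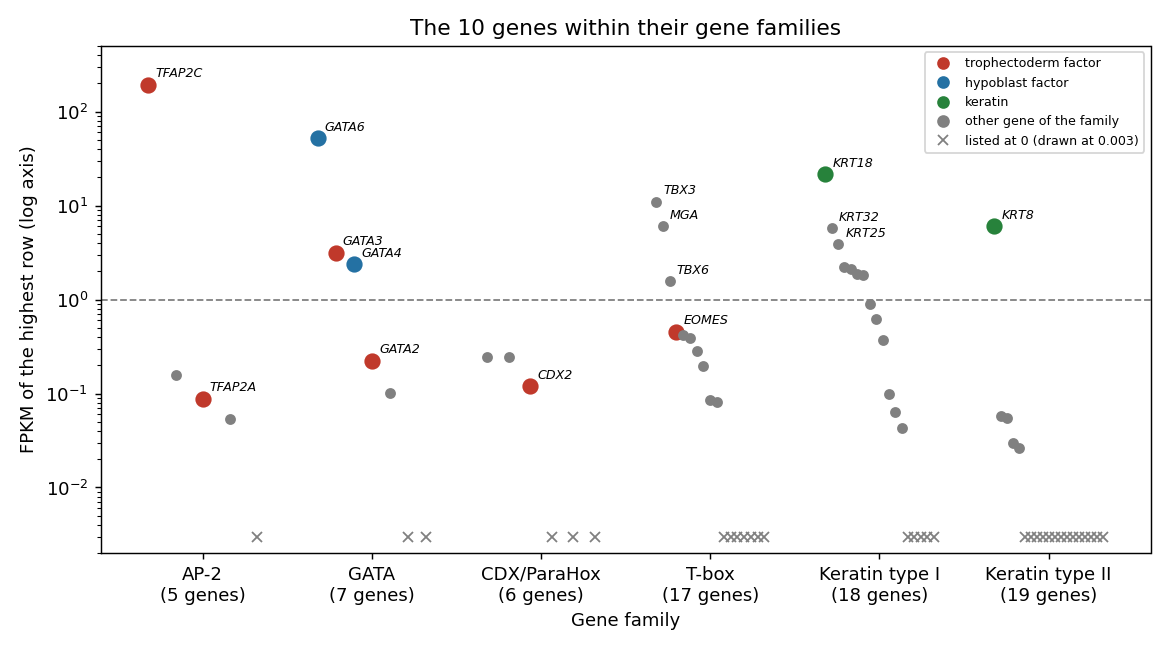
FPKM of the highest row (log axis) of each measured gene in the AP-2, GATA, CDX and ParaHox, T-box and keratin families, with the 10 genes in colour, other genes in grey and genes listed at 0 as crosses drawn at 0.003. The dashed line marks 1 FPKM. One member stands far above its relatives in the AP-2 and GATA families (TFAP2C and GATA6), no CDX or ParaHox gene reaches the line, and KRT8 is the only type II keratin above it.

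Keratin filaments reach the cell border at desmosomes, and genes of desmosomes and of plakin linkers were read beside the keratins. Of 16 measured genes 5 (31.25%) reached 1 FPKM, against 48.8% of all genes. JUP, the plakoglobin shared by desmosomes and adherens junctions, had 32.8 FPKM, the desmosomal cadherin gene DSC3 11.0 FPKM and the plakophilin gene PKP2 7.57 FPKM. The desmosomal cadherin gene DSG2 was the lowest above the threshold at 2.75 FPKM, and the plakin gene DST was just below it at 0.880 FPKM. DSP, the desmosomal protein that binds keratin, had 3.49 FPKM and PLEC 0.143 FPKM, both picked after their levels were known.

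The levels of the 10 genes were then set beside other genes of the same lineages. Of 19 other trophectoderm and trophoblast factor genes 9 (47.4%) reached 1 FPKM, close to the 48.8% of all genes, with a median of 0.993 FPKM. TEAD4, the DNA-binding partner of YAP1, had 49.4 FPKM, a level close to that of GATA6. KLF5, a factor of both trophectoderm and pluripotent cells, had 21.9 FPKM and the homeobox gene MSX2 14.5 FPKM. ARID3A at 1.14 FPKM and ID2 at 0.993 FPKM lay on either side of the threshold, and the 9 genes below ID2 lay between 0.0932 and 0.467 FPKM, in the range that holds EOMES, GATA2 and CDX2.

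Effector genes of the epithelium were mostly expressed. Of 15 measured genes 14 (93.3%) reached 1 FPKM, against 48.8% of all genes, with a median of 16.4 FPKM. Like the other lists, this one was chosen with earlier results of these data known. The prostaglandin E synthase gene PTGES had 225 FPKM, more than TFAP2C, the tight junction gene CLDN6 56.8 FPKM and EZR, which ties membrane to actin, 50.2 FPKM. The water channel gene AQP3 was just above the threshold at 1.17 FPKM, and KRT7 was the only measured gene below it. Many of these genes serve all compacting cells of a morula and are not particular to trophectoderm.

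Hypoblast genes other than GATA4 and GATA6 were mostly below 1 FPKM, a level that 48.8% of all genes reached. Of 6 other hypoblast factor genes 2 reached it, led by TBX3 at 11.04 FPKM, while FOXA2 had 0.167 FPKM. SOX17, which acts after GATA6 in the mouse, was listed at 0 and was picked after its level was known. Of 25 receptor, matrix and secreted protein genes of the hypoblast 7 (28.0%) reached 1 FPKM, with a median of 0.224 FPKM. The endocytic adaptor gene DAB2 had 13.0 FPKM, the receptor gene LRP2, whose protein DAB2 binds, 10.6 FPKM and the transport protein gene TTR 9.48 FPKM. BMP2 at 1.48 FPKM and APOE at 0.946 FPKM lay on either side of the threshold. PDGFRA, a receptor of early primitive endoderm in the mouse that was picked after its level was known, had 0.669 FPKM. GATA6 at 52.6 FPKM lay 4.06-fold above DAB2, the highest of these 25 effector genes by highest rows, and 2.18-fold above LRP2, the highest by summed rows (24.1 FPKM).

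Pluripotency genes were read in the same RNA. Of the 24 genes listed, 7 were not analysed here, POU5F1 and NANOG among them. Of the 17 measured genes 11 (64.7%) reached 1 FPKM, against 48.8% of all genes. The list's median, 5.36 FPKM, was the level of SOX2, picked after its level was known, and lay above those of GATA3 and GATA4. KLF17 had 85.9 FPKM, ZFP42 49.9 FPKM and DPPA5 40.4 FPKM, each below TFAP2C, and TDGF1 at 1.35 FPKM and ETV5 at 0.944 FPKM lay on either side of the threshold. In RNA of bulk morulae, fewer cells with a transcript and less transcript per cell cannot be told apart, and whether TFAP2C, GATA6 and the pluripotency genes were expressed in the same cells was not measured.

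**Figure D4:**
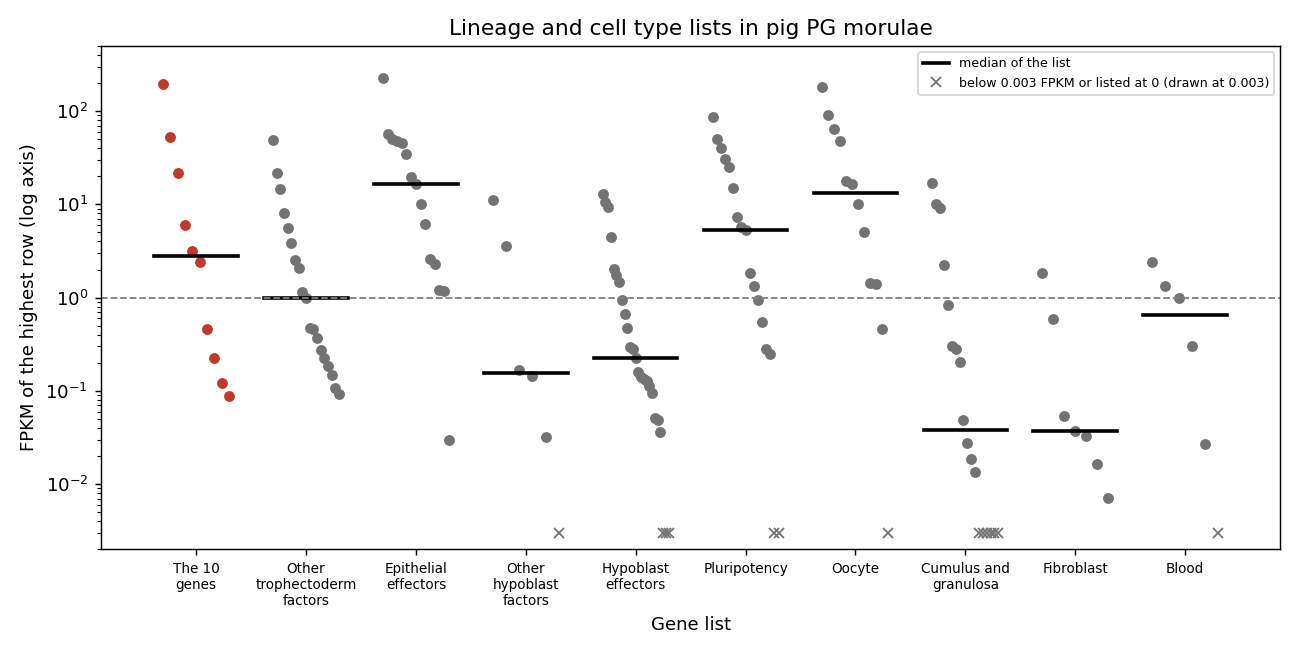
FPKM of the highest row (log axis) of each measured gene in the gene lists, with the 10 genes in red, the median of each list as a black bar, and genes below 0.003 FPKM or at 0 as crosses drawn at that level. The dashed line marks 1 FPKM. Of the 10 lists drawn, epithelial effector and oocyte genes have the highest medians (16.4 and 13.3 FPKM), and cumulus and fibroblast markers the lowest (0.0383 and 0.0374 FPKM).

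Genes of the signals known to act on these factors were read as well. Of 17 measured Hippo pathway genes 12 (70.6%) reached 1 FPKM, against 48.8% of all genes. After TEAD4, the kinase adaptor gene MOB1A had 24.4 FPKM and YAP1 15.5 FPKM, with TEAD2 at 2.51 FPKM just above and AMOTL2 at 0.943 FPKM just below the threshold. NOTCH signalling acts with TEAD4 on CDX2 in the mouse, and 4 of its 8 measured genes (50%) reached 1 FPKM, near the 48.8% of all genes. RBPJ, the DNA-binding protein of the pathway, had 35.9 FPKM, its target HES1 16.0 FPKM and the ligand gene JAG1 2.63 FPKM. NOTCH3 at 1.63 FPKM and NOTCH2 at 0.434 FPKM lay on either side of the threshold. Of 22 FGF and MAPK genes, the pathway upstream of GATA6 in the mouse, 16 (72.7%) reached 1 FPKM, against 48.8% of all genes. The receptor adaptor gene FRS2 had 28.0 FPKM, the feedback phosphatase gene DUSP6 had 1.03 FPKM and HRAS 0.720 FPKM. Of the receptors, picked after their levels were known, FGFR2 had 2.01 FPKM, FGFR3 0.227 FPKM, FGFR4 0.0884 FPKM and FGFR1 0.0219 FPKM, and the ligand gene FGF4 was listed at 0.

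The tissue label was checked on markers. Oocyte genes, whose transcripts can be carried over from the egg, reached 1 FPKM in 10 of 12 measured cases (83.3%), against 48.8% of all genes. They were led by OOSP2 at 179 FPKM, H1FOO at 90.3 FPKM and WEE2 at 65.1 FPKM. No egg was analysed here, so egg-stored and newly made RNA of the 10 genes cannot be told apart. Granulosa cells and the cumulus cells around the egg are known to express GATA4 and GATA6, and in several species KRT8 and KRT18. The highest rows of 18 measured cumulus and granulosa markers summed to 40.2 FPKM. Of these markers 4 (22.2%) reached 1 FPKM, against 48.8% of all genes. These 4 were FST at 16.9 FPKM, VCAN at 10.2 FPKM, KITLG at 9.15 FPKM and VIM at 2.25 FPKM. The other 14 lay below 1 FPKM, with CYP19A1 highest at 0.835 FPKM, and 5 of them were listed at 0, namely FSHR, FOXL2, INHA, TNFAIP6 and GJA1, which were named after their levels were known. The part of such cells in the values of GATA4, GATA6, KRT8 and KRT18 was not tested.

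Fibroblast markers reached 1 FPKM in 1 of 7 cases (14.3%) and blood markers in 2 of 6 (33.3%), against 48.8% of all genes. The highest were THY1 at 1.83 FPKM and DCN at 0.597 FPKM for fibroblasts, and CD14 at 2.38 FPKM and CD68 at 1.32 FPKM for blood. The sums of their highest rows were 2.58 and 5.02 FPKM. The values of EOMES (0.455 FPKM), GATA2 (0.224 FPKM), CDX2 (0.121 FPKM) and TFAP2A (0.0881 FPKM) were below those of DCN, a fibroblast matrix gene, and of the T cell gene CD3E (0.985 FPKM). Other markers lay lower. The highest remaining fibroblast marker, COL1A2, had 0.0535 FPKM, below TFAP2A. Of the remaining blood markers, HBB (0.302 FPKM) lay between EOMES and GATA2, PTPRC (0.0269 FPKM) lay below TFAP2A and CSF1R was listed at 0. These markers were picked after their levels were known. At an unknown depth, such low values show neither that a gene is expressed nor that it is absent.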

How the data were processed

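The authors deposited 1 table of FPKM values per Ensembl transcript, per the file headers, with 37571 rows and 1 value column. Its name says that 4 replicates were merged, but not at which step. The submitters' processing notes list TopHat2 2.1.1 and Cufflinks 2.2.1 among tools for all data types, and susScr11 among the builds, with no role. Depth is unknown, and 4534 rows above 0 and under 1e-06 FPKM point to fitted values, so no read counts were recovered. The last 474 rows are all at 0 and hold none of the 10 genes. Each gene was given the value of its highest row, with the sum of rows beside it. Ranks run over all 15877 gene names.

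A gene at 1 FPKM or more was called expressed. Counts of genes at that level in any list are to be read beside the 48.8% of all genes that reached it. Members and gene lists were chosen with earlier results of these data known. Named from each list were the 3 highest genes and those next to 1 FPKM, the 4 highest other keratins, and all genes of the AP-2, GATA, CDX and simple keratin lists. Genes outside this rule are marked as picked after their levels were known, and a few genes under it are left out. Keratins were taken as KRT symbols followed by digits. The steps were tested on simulated data and run in Python 3.11.15 with pandas 2.3.3. No pig sequence was used.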

Additional observations from a re-analysis of the deposited data

How the results depend on the processing

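No paired analysis was possible because the 4 libraries share 1 merged column, and no replicate could be left out for the same reason. Of the 10 genes, 6 reached 1 FPKM by highest rows, 6 by summed rows, 6 at a threshold of 0.5 FPKM and 4 at 5 FPKM. The count was 7 after rescaling to TPM, which acts as a lower threshold for all genes alike, one that EOMES crossed. In the same order, the shares of all genes were 48.8%, 50.6%, 56.5%, 28.4% and 61.3%. A higher threshold admits fewer genes, and 28.4% of all genes reached 5 FPKM. At that level were 5 of 19 other trophectoderm factors, 1 of 6 other hypoblast factors, 3 of 25 hypoblast effectors and 3 of 37 keratins. Epithelial effectors reached it in 10 of 15 cases and pluripotency genes in 9 of 17. TFAP2A was the 1 gene whose value moved over 1.5-fold with summed rows. Among genes at 0.1 FPKM or more alone, EOMES lay above 19.6%, GATA2 above 10.1% and CDX2 above 2.13% of genes, and TFAP2A was not in that set. With a pseudocount of 0.1 in place of 1 FPKM, 5 of 11 log2 differences between members moved by more than the log2 of 1.5, all involving a gene below 1 FPKM, among them TFAP2C minus CDX2 at 9.78 in place of 7.44. Of these 11 differences none changed sign, but CDX2 and TFAP2A, a pair not among them, changed order with summed rows (0.121 and 0.176 FPKM). The unknown depth limits all values below 1 FPKM.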

Other observations

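Intermediate filament genes outside the keratins were led by a neuronal one. Of 11 measured genes 6 (54.5%) reached 1 FPKM, against 48.8% of all genes. NEFL, the neurofilament light chain, had 20.2 FPKM, close to KRT18 at 21.5 FPKM and above KRT8. The nuclear lamina genes LMNB1 and LMNB2 had 7.70 and 7.14 FPKM, and LMNA, a lamin gene known to be low in pluripotent cells, was just above the threshold at 1.40 FPKM. VIM, the filament gene of mesenchyme, picked after its level was known, had 2.25 FPKM, and PRPH was the highest below 1 FPKM at 0.411 FPKM.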
